A study of Mus musculus with 2 samples.

Results

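Classical cadherins and nonclustered protocadherins are cell surface proteins that bind through repeated extracellular domains in the presence of calcium. Genes were taken when their symbol was Cdh or Pcdh followed by a number and nothing else, which gave 34 of the 32158 genes with a symbol in the count matrices of both libraries. By structure, 5 were type I classical cadherins, 13 type II classical cadherins, 5 other cadherins, 3 delta-1 protocadherins, 5 delta-2 protocadherins and 3 other protocadherins. Their RNA was counted in single nuclei from the thalamus of female C57BL/6J mice aged 3 months, 21 days after surgery. The sham library came from a pool of 4 mice with a sham operation, and the injury library from a pool of 4 mice with cortical ablation injury, in which tissue of the cortex was surgically removed. Each condition was therefore 1 library of pooled animals without a replicate, so no difference between conditions could be tested, and each value below comes with counting error alone.

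Type I and type II classical cadherins join cells that carry a matching cadherin, and catenins link them to actin inside the cell. Type II cadherins have long been known for being switched on in particular nuclei and layers of the developing brain, where their combinations help neurons of a kind to sort together and to choose targets. Delta protocadherins bind weakly and signal to the cytoskeleton, and a few relatives such as Cdh23 and Pcdh15 are best known as the tip link of hair cells in the inner ear.

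The sham library held 137850696 UMIs (unique molecular identifiers, each counting 1 captured RNA molecule) in 16390 barcodes and the injury library 180106314 UMIs in 21828 barcodes. After filtering, 16373 and 21777 nuclei remained, with medians of 7190 and 6810 UMIs. The libraries shared 101 barcodes, 0.616% of sham and 0.463% of injury barcodes. Scrublet called 13.4% of sham and 17.5% of injury nuclei doublets (droplets that hold more than a single nucleus). They were kept, apart from clusters made mostly of them. Nuclei were clustered without the 34 genes and classes were named from markers. The levels below are UMIs per 1000000 UMIs of the class (CPM), and intervals are exact 95% intervals that cover counting error only.

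The 7 classes compared each held at least 50 nuclei in each library. Relay-like neurons (glutamatergic cells that carry input from the thalamus to the cortex) formed 9 clusters with 6476 sham and 6489 injury nuclei. Habenula-like neurons formed 3 clusters with 1847 and 2103 nuclei. The other glutamatergic neurons (2359 and 2737 nuclei, most of them in cluster N0, led by Lmx1a) and GABAergic neurons (1959 and 3252 nuclei) formed 4 and 2 clusters. Oligodendrocytes held 990 and 2303 nuclei, oligodendrocyte precursors (OPCs) 144 and 218, and astrocytes 209 and 512. All fixed markers of each of these glial classes were raised in its cluster. The OPC cluster also held markers of differentiating oligodendrocytes, with a summed 1897 and 1873 CPM. The astrocyte cluster had none of its fixed markers among its 10 leading genes, and its sham nuclei had a median of 1892 UMIs, beside 7190 in the whole library. Oligodendrocyte nuclei had still lower medians, 1538.5 UMIs in sham and 1651 in injury. Habenula-like cluster N8, led by Ptprq, showed 5 of 10 habenula markers. Clusters left out of the classes made up 14.4% of sham and 18.3% of injury nuclei.

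Of the 34 genes, 28 had at least 20 UMIs in some class in each library. The other 6 had under 100 UMIs over both libraries together and are not compared. These were Cdh1, the E-cadherin of epithelia, with 26 UMIs, Cdh5, the cadherin of blood vessel lining, with 36, Cdh16 with 70, Cdh17 with 21, Cdh26 with 41 and Pcdh12 with 16. Cdh8, Pcdh15 and Cdh12 each overlap another annotated gene on the same strand. A further limit is that 17 of the 34 overlap an antisense gene, and whether counting used the strand was not stated in the sources used here.

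To ask which genes set a class of nuclei apart, each gene was compared over the 7 classes in each library. A gene was set apart by a class when its level there was at least 2-fold above that of every other class in both libraries. This held for 3 of the 28 genes, beside 10.6% of all genes with enough UMIs. They were Pcdh9 in oligodendrocytes, Pcdh15 in OPCs and Cdh3 in habenula-like neurons. At least 3-fold was reached by Cdh3 alone, and the share of all genes at that limit was not counted.

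Pcdh9, a delta-1 protocadherin (chr14:93013410-93890679, minus strand, GRCm38), was at 18945 CPM in sham and 17726 CPM in injury oligodendrocytes. The next class, OPCs, was at 7468 and 6152 CPM. Oligodendrocytes were 2.54-fold (2.45 to 2.62) above OPCs in the sham library and 2.88-fold (2.80 to 2.96) in the injury library. Every class carried this gene in quantity, with 3620 CPM in sham and 3554 CPM in injury habenula-like neurons, the lowest of the 7. Of all genes with enough UMIs, 7.27% were set apart by oligodendrocytes.

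Pcdh15 (chr10:73099342-74649737, plus strand, GRCm38), whose protein joins Cdh23 in the tip link, was at 3653 CPM in sham and 3616 CPM in injury OPCs. The other glutamatergic neurons came next, with 1694 and 1668 CPM. The fold between them was 2.16 (2.06 to 2.26) in sham and 2.17 (2.09 to 2.25) in injury. Astrocytes had 52.9 and 75.3 CPM of Pcdh15, the lowest level of the 7 classes. The share of all genes set apart by OPCs was 3.31%.

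Cdh3, the type I classical P-cadherin (chr8:106510891-106557297, plus strand, GRCm38), was a low but narrowly placed gene. Habenula-like neurons had 14.5 CPM from 155 UMIs in sham and 24.6 CPM from 312 UMIs in injury. The other glutamatergic neurons were next with 0.589 and 0.346 CPM. That put habenula-like neurons 24.7-fold (13.1 to 52.4) above in sham and 71.3-fold (34.2 to 179) above in injury. For comparison, 1.89% of all genes were set apart by habenula-like neurons. In OPCs and astrocytes no UMI of Cdh3 was counted in either library.

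Cdh8, a type II cadherin, lay just outside the limit. It was at 1423 and 1426 CPM in habenula-like neurons and at 722 and 708 CPM in relay-like neurons, a fold of 1.97 in sham and 2.01 in injury. Without called doublets it joined the set, which then held 4 genes, and the share of all genes was not counted at that setting. Pcdh17, a delta-2 protocadherin, was at 555 and 429 CPM in OPCs and at 271 and 278 CPM in other glutamatergic neurons, the next class, folds of 2.05 and 1.54. Cdh23 was highest in GABAergic neurons, with 41.4 and 32.4 CPM. Its fold over the next class was 4.70 (1.83 to 17.3) in sham, where astrocytes had 4 UMIs. In injury the fold was 1.40 (0.90 to 2.30), where OPCs reached 23.1 CPM from 20 UMIs.

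**Figure D1:**
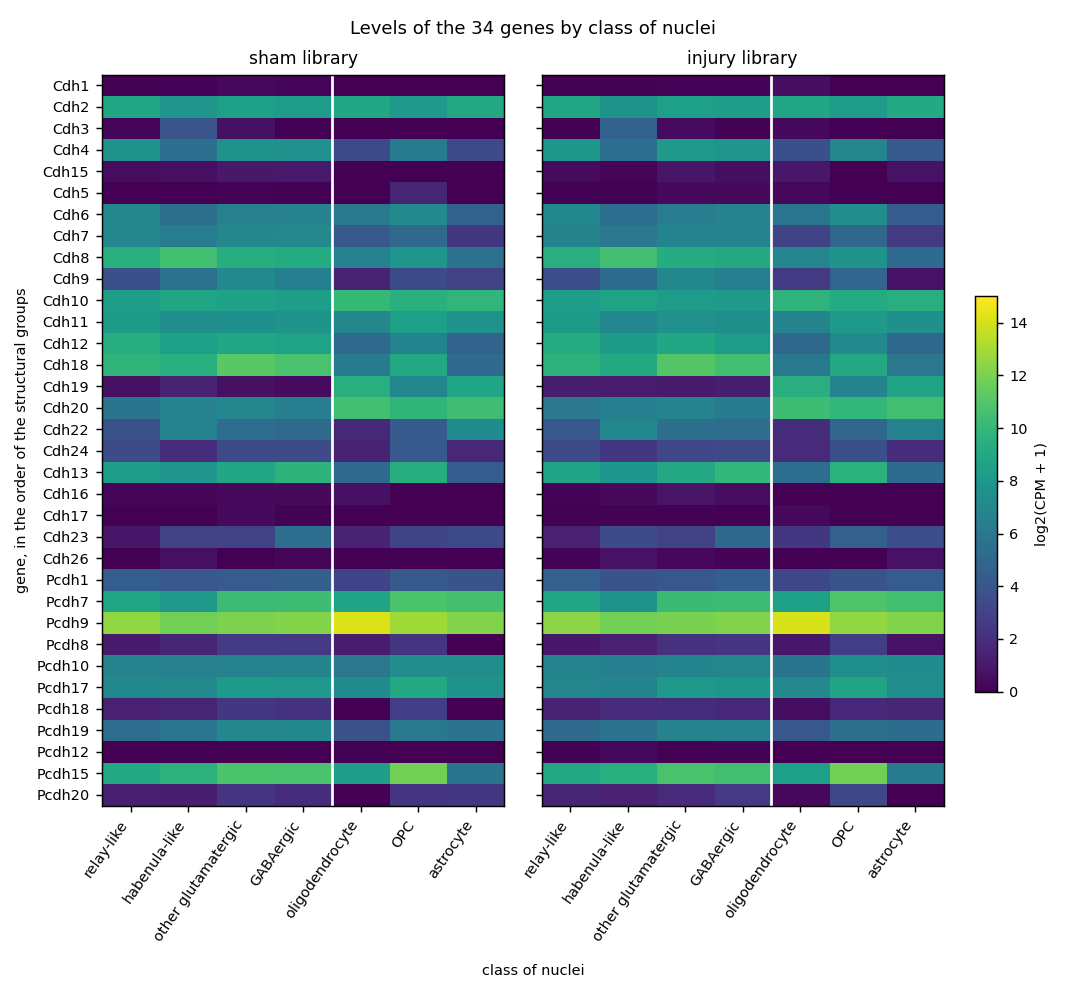
Levels of the 34 genes as log2(CPM + 1), in color, in each of 7 classes of nuclei (columns) and each gene (rows, by structural group), with the sham library at left and the injury library at right. The white line parts neurons from glia, and Cdh19 and Cdh20 are bright to its right, Cdh8 to its left.

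The 3 glial classes compared were marked by Cdh19 and Cdh20, 2 of the 3 type II cadherins that lie on chromosome 1. Cdh7, also on chromosome 1, ran the other way, with 4.41 to 35.8 CPM in these glial classes and 60.6 to 134 CPM in neurons. Each contrast in this and the next paragraphs asked for at least 2-fold in both libraries and was chosen after the values were seen. Cdh19 and Cdh20 were above every neuron class in each of the 3 glial classes, 2 of 12 genes with enough UMIs, where 3.19% of all genes were. Cdh19, known from glia of the peripheral nerve, was at 671 and 699 CPM in oligodendrocytes, 474 and 439 CPM in astrocytes and 117 and 104 CPM in OPCs. In the 4 neuron classes it lay between 0.357 and 1.69 CPM. Cdh20 was at 1416 and 1290 CPM in oligodendrocytes, 1373 and 1405 CPM in astrocytes, 901 and 960 CPM in OPCs, and 53.1 to 124 CPM in neurons. In microglia, left out of this contrast, 0 UMIs of both genes were counted in sham. Injury microglia had 28.4 CPM of Cdh19 from 10 UMIs and 88.2 CPM of Cdh20 from 31 UMIs, the latter within the range of neurons.

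Oligodendrocytes were 2-fold above every neuron class for 4 of 17 genes, Cdh10 and Pcdh9 besides Cdh19 and Cdh20, beside 14.9% of all genes. Cdh10, another type II cadherin, was at 1051 and 870 CPM in oligodendrocytes and at most 467 CPM in a neuron class. The same contrast held in OPCs for Cdh19, Cdh20 and Pcdh15, 3 of 17 genes (10.4% of all genes), and in astrocytes for Cdh19 and Cdh20, 2 of 13 (19.4% of all genes). For astrocytes the members' share was below that of all genes. In the opposite direction, Cdh8 was the single gene of 24 that was 2-fold higher in every neuron class than in every glial class, against 1.91% of all genes. Over the 3 glial classes compared its highest level was 230 CPM, in sham OPCs. Its lowest level over the neuron classes was 530 CPM, in injury GABAergic neurons. Single clusters could lie lower. In the other glutamatergic class, N22 had 181 CPM in sham from 96 UMIs, below sham OPCs, and 284 CPM in injury. Microglia, which were not compared, had 481 CPM of Cdh8 from 37 UMIs in sham and 347 CPM from 122 UMIs in injury, beside upper estimates for free RNA (RNA outside nuclei that enters every droplet) of 464 and 269 CPM.

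Among the 4 neuron classes, no gene of 27 was 2-fold higher in relay-like neurons than in the other classes, where 3.71% of all genes were. Relay-like neurons were instead 2-fold lower than each of them for Cdh9, Cdh22 and Cdh23, 3 of 24 genes (4.77% of all genes). Cdh9, known for its part in synapse targeting in the hippocampus and retina, was at 11.9 and 11.3 CPM in relay-like neurons and between 38.2 and 136 CPM in the others. Cdh22 was at 13.1 and 16.8 CPM in relay-like neurons. It reached 95.9 and 121 CPM in habenula-like neurons, which were 2-fold above the other neuron classes for Cdh3 and Cdh22, 2 of 25 genes (3.77% of all genes). In astrocytes, however, Cdh22 was at 154 and 96.7 CPM, so it did not mark habenula-like nuclei among all classes.

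Of 25 genes, Cdh4, the R-cadherin, alone was 2-fold lower in habenula-like neurons than in every other neuron class (2.95% of all genes). It was at 42.9 and 41.7 CPM there, beside 194 to 260 CPM in the other neuron classes. Cdh23 was 2-fold higher in GABAergic neurons than in the other neuron classes, 1 of 25 genes (0.818% of all genes). The other glutamatergic neurons had 6.36 and 6.62 CPM of Cdh23, and relay-like neurons 0.859 and 1.62 CPM. Microglia, with 32 sham and 169 injury nuclei, were too few in the sham library for the comparison. Their Cdh23 level was 130 CPM from 10 UMIs in sham and 222 CPM from 78 UMIs in injury, above each class compared.

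Levels also differed between clusters within a neuron class. They were compared over the clusters of each class, and a gene was counted when its highest cluster was at least 4-fold above its lowest in both libraries, with at least 20 UMIs in the highest. A lowest value under 3 UMIs was raised to 3 UMIs. This held for 14 of 22 genes over the 3 habenula-like clusters, where 10.5% of all genes passed, and the median fold was 7.25 for the members and 1.33 for all genes. Over the 9 relay-like clusters it held for 20 of 24 genes, where 16.9% of all genes passed, with medians of 6.41 and 1.65. Members and all genes were not matched for UMIs in these medians. Raising low values to 3 UMIs limits the fold of genes with few UMIs. With at least 200 UMIs in the highest cluster, the counts were 13 of 19 genes (13% of all genes) and 17 of 20 (19.9% of all genes).

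Habenula-like cluster N7, led by Chat and Chrna3, carried genes for acetylcholine synthesis and nicotinic receptors, as the cholinergic neurons of the medial habenula do. Cluster N11 was led by Pde11a and held Tac2, which encodes a tachykinin. Of the 14 genes, 11 were highest in N8 in both libraries, 2 (Cdh3 and Cdh20) in N7 and 1 (Cdh12) in N11. N7 was the lowest cluster in both libraries for 6 genes and N11 for 7. How all genes at least 4-fold apart divided over the clusters was not counted, here or in the classes below. The habenula name of N8 depended on the clustering. At resolution 1.0 its 1467 nuclei parted into 617 in a habenula-like cluster with 5 markers raised and 850 in a cluster with 2, classed with other glutamatergic neurons. Over the habenula-like clusters drawn that way, 13 of 22 genes were at least 4-fold apart (7.67% of all genes).

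Cdh18, a type II cadherin, was at 1388 and 1316 CPM in N8, at 65.4 and 42.1 CPM in N7 and at 41.4 CPM in N11 in both libraries. Pcdh7, a delta-1 protocadherin, was at 539 and 487 CPM in N8 and between 16.4 and 23.4 CPM in N7 and N11. Cdh9 was at 92.9 and 90.3 CPM in N8, 13.8 and 4.17 CPM in N7, and 3.28 and 1.58 CPM in N11. For these genes N8 stood apart from both of the other clusters, with no overlap between the libraries' values. Pcdh10, a delta-2 protocadherin tied to activity-dependent loss of synapses, was at 174 and 203 CPM in N8, 8.05 and 7.34 CPM in N7, and 13.9 and 11.4 CPM in N11. Pcdh15 was graded, with 1447 and 1483 CPM in N8, 224 and 216 CPM in N11, and 76.2 and 66.7 CPM in N7. At resolution 1.0, Cdh18 was at 653 and 604 CPM in the habenula-like cluster from N8 and at 1857 and 1755 CPM in the cluster classed with other glutamatergic neurons. Pcdh7 was at 226 and 156 CPM in the former and 740 and 691 CPM in the latter, and Pcdh15 at 1604 and 1607 CPM and at 1347 and 1407 CPM.

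A few genes ran the other way. Cdh12 was at 656 and 615 CPM in N11, 419 and 378 CPM in N8, and 45.3 and 31.5 CPM in N7. Cdh3 was mostly a gene of the cholinergic cluster, with 40.6 and 54.2 CPM in N7 beside 5.33 and 6.29 CPM in N8 and 2.46 and 2.76 CPM in N11. Cdh20 was at 130 and 123 CPM in N7 and 115 and 95 CPM in N8, but at 11.9 and 6.70 CPM in N11. Cdh8 was high throughout, from 1170 CPM in sham N8 to 1999 CPM in sham N11.

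**Figure D2:**
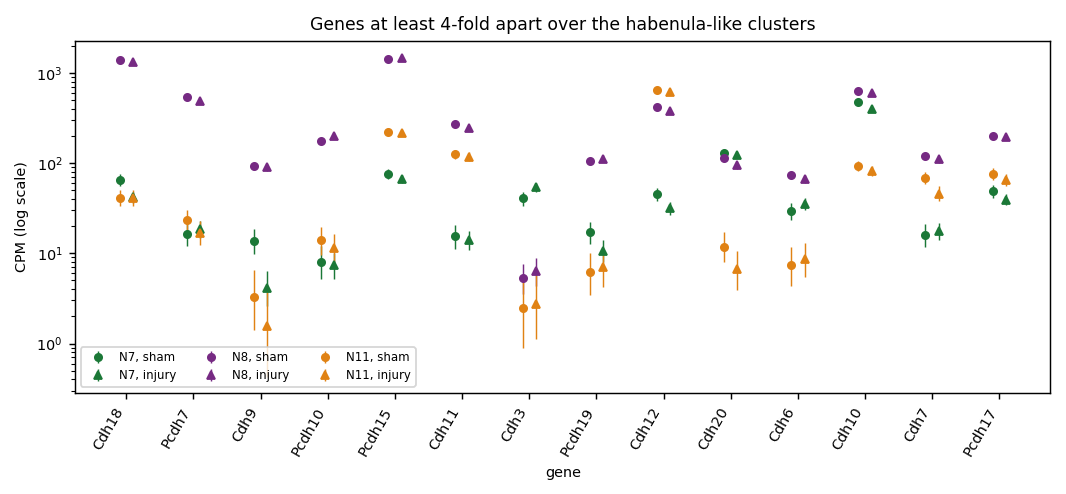
CPM (log scale) of the 14 genes at least 4-fold apart over the 3 habenula-like clusters, with circles for the sham and triangles for the injury library, colors for N7, N8 and N11, and bars for exact 95% Poisson intervals. N8 is highest for 11 genes, and Cdh3 is highest in N7, at 40.6 CPM in sham and 54.2 CPM in injury.

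The sequence before the transcription start is shown for a pair of the genes that were highest in N8 together, Pcdh10 and Pcdh15, since they differed in a short core that homeodomain factors can bind. The windows are from RefSeq (GRCm38.p6) and run from 250 bases before to 50 after the start, on the plus strand, with the motifs TAATTA or TAATTG in capitals. Matches were sought on both strands, as CAATTA for the reverse of TAATTG, since TAATTA is its own reverse.
Pcdh15, chr10:73821617-73821916: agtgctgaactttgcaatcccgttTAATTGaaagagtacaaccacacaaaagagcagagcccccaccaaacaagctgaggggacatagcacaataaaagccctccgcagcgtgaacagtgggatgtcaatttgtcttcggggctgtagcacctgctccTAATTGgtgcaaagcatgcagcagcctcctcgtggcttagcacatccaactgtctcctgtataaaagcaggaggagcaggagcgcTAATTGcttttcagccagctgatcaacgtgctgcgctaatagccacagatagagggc
Pcdh10, chr3:45378148-45378447: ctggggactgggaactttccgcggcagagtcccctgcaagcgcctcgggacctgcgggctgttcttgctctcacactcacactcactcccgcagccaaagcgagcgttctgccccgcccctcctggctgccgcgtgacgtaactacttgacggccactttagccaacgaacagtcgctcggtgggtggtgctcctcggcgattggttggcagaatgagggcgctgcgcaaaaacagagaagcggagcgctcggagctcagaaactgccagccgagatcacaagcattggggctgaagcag
The Pcdh15 window held 3 matches and the Pcdh10 window 0. The windows of Cdh18, Pcdh7 and Cdh9 also held 0. The 22 members with a window had 25 windows, of which 5 (20%) held a match, and of all promoter windows 12.4% did. A match describes the letters and is not a bound site. The RefSeq start of Pcdh15 lies 722.5 kb from the start of the gene in the GENCODE annotation used here for gene positions.

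Relay-like clusters differed by many of the same members, Cdh18, Pcdh7, Cdh9, Pcdh10 and Pcdh15 among them. Of the 20 genes, 13 had the same highest cluster in both libraries. Cluster N4, led by Lypd6b and Hpse2, was highest for 6 of them (Cdh7, Cdh11, Cdh13, Cdh22, Pcdh7 and Pcdh20), and N6, led by Nox4, for 5 (Cdh9, Cdh18, Cdh24, Pcdh8 and Pcdh15). N13, led by Npsr1, was highest for Pcdh9 and Cdh12 and lowest for 6 genes. N4 and N6 each had 1 of 8 relay markers raised. At resolution 1.0, 67.8% of the nuclei of N4 fell in a cluster classed with other glutamatergic neurons, while 99.9% of those of N6 stayed relay-like, and 22 of 24 genes were at least 4-fold apart over the relay-like clusters (19.9% of all genes). In N6, 21.5% of nuclei were called doublets, and in N13 2.45%. What doublets add to these levels was not tested cluster by cluster, but without them 18 of 22 genes passed (17.5% of all genes).

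The largest folds over relay-like clusters were in Cdh20, Cdh22, Pcdh20, Cdh24 and Cdh9. Cdh20 ranged from 3.17 CPM in N13 to 109 CPM in N6 in the sham library and from 0.919 CPM in N13 to 111 CPM in N3, the Prkcd cluster, in the injury library. Cdh22 was at 43.2 and 55.9 CPM in N4 and 39.5 and 42.5 CPM in N6, and between 0.919 and 22.4 CPM elsewhere. Both N4 and N6 therefore had Cdh22 near its level in other glutamatergic and GABAergic neurons. Cdh24 was at 30.8 and 26.9 CPM in N6, 0.732 and 0.919 CPM in N13, and 1.25 and 1.46 CPM in N12. Pcdh20 was low throughout, with 6.21 and 7.64 CPM in N4, 3.68 and 4.78 CPM in N6, and at most 2.32 CPM in the other clusters.

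Other relay-like contrasts were carried by many more UMIs. Cdh13, a cadherin held at the membrane by a lipid anchor, was at 1086 and 1273 CPM in N4 and between 115 and 436 CPM in the other 8 clusters. Pcdh15 was at 1353 and 1265 CPM in N6, 991 and 903 CPM in N4, and 97.9 and 95.1 CPM in N15, the Fgf10 cluster. Pcdh9 was at 10369 and 10162 CPM in N13 and at 2276 and 2231 CPM in N19. By contrast Cdh2, the N-cadherin of most neurons, varied from 396 to 868 CPM over the 9 clusters and did not reach 4-fold.

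Of the type II genes, 5 lie side by side on chromosome 15 (Cdh6, Cdh9, Cdh10, Cdh12 and Cdh18, from base 13028701 to base 23474418, GRCm38), and they did not share their highest relay-like cluster. Cdh9 and Cdh18 were highest in N6, at 45.3 and 34.4 CPM and at 2058 and 1964 CPM. Cdh18 was lowest in N15, at 308 and 251 CPM, and Cdh9 was lowest in N15 in sham, at 0.951 CPM, and in N3 in injury, at 2.10 CPM. Cdh12 was highest in N13, at 1204 and 1093 CPM, and lowest in N4, at 179 and 167 CPM. Cdh10 was lowest in N19, at 88.3 and 70.7 CPM, and its highest cluster was N13 in sham and N10 in injury, at 520.1 and 465 CPM. Cdh6 was below the 4-fold limit, between 42.4 and 180.0 CPM.

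**Figure D3:**
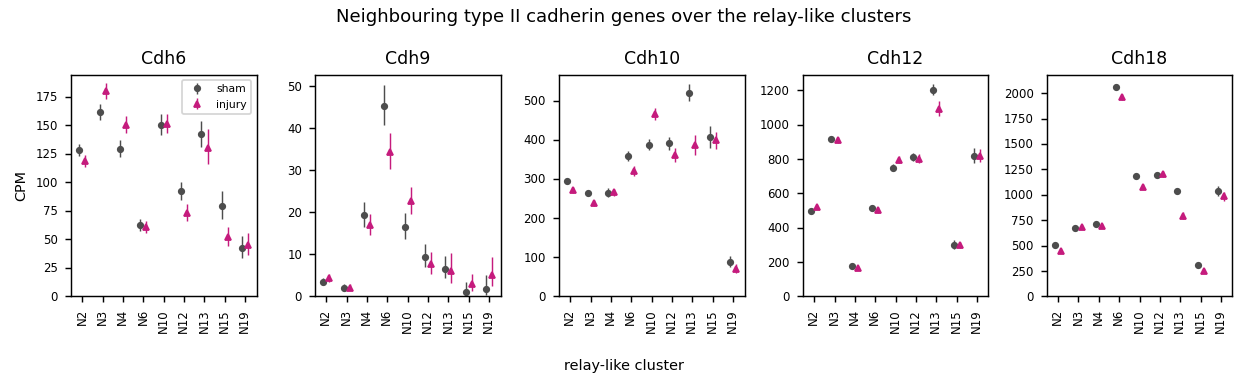
CPM of 5 neighbouring type II cadherin genes on chromosome 15 in each of the 9 relay-like clusters, with grey circles for the sham library, pink triangles for the injury library and bars for exact 95% Poisson intervals. Cdh18 peaks in N6 (2058 and 1964 CPM) and Cdh12 in N13 (1204 and 1093 CPM), with the libraries following each other.

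GABAergic neurons formed cluster N1, led by Gata3, with Pax6 among its leading genes, and cluster N9, led by Six3 and holding Pvalb and Meis2, markers that label the reticular nucleus. Over this pair of clusters, 5 of 25 genes were at least 4-fold apart (3.52% of all genes), each higher in N1. The median fold was 2.19 for the members and 1.18 for all genes, again not matched for UMIs. Cdh23 was at 55.5 and 43.8 CPM in N1 and 2.69 and 2.04 CPM in N9. Cdh20 was at 110 and 94.9 CPM in N1 and at 11 CPM in N9 in both libraries, and Cdh4 at 249 and 296 CPM in N1 and 42.7 and 43.5 CPM in N9. Cdh24 and Pcdh18 followed at low levels, with 12.9 and 11.5 CPM and 4.58 and 2.83 CPM in N1. Cdh13 was the reverse, with 1941 and 2126 CPM in N9 and 445 and 532 CPM in N1, short of 4-fold in the injury library. Without called doublets the count was 8 of 25 (4.66% of all genes), and with at least 200 UMIs 3 of 20 (3.28%).

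The other glutamatergic clusters had 4 of 22 genes at least 4-fold apart (5.17% of all genes), and 10 of 21 at resolution 1.0 (14.3%), where the class took in nuclei of N4 and N8. Cdh6 was highest in N21, a cluster led by Ebf2 that also holds Corin, with 997 CPM in sham and 426 CPM in injury, and lay between 50.5 and 104 CPM in the other clusters. The same cluster was lowest for Cdh4, Cdh9 and Pcdh10. N21 had 72 sham and 175 injury nuclei, and 33.4% of all genes in it differed between libraries by a log2 ratio of 0.5 or more, the highest share of any neuron cluster compared.

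**Figure D4:**
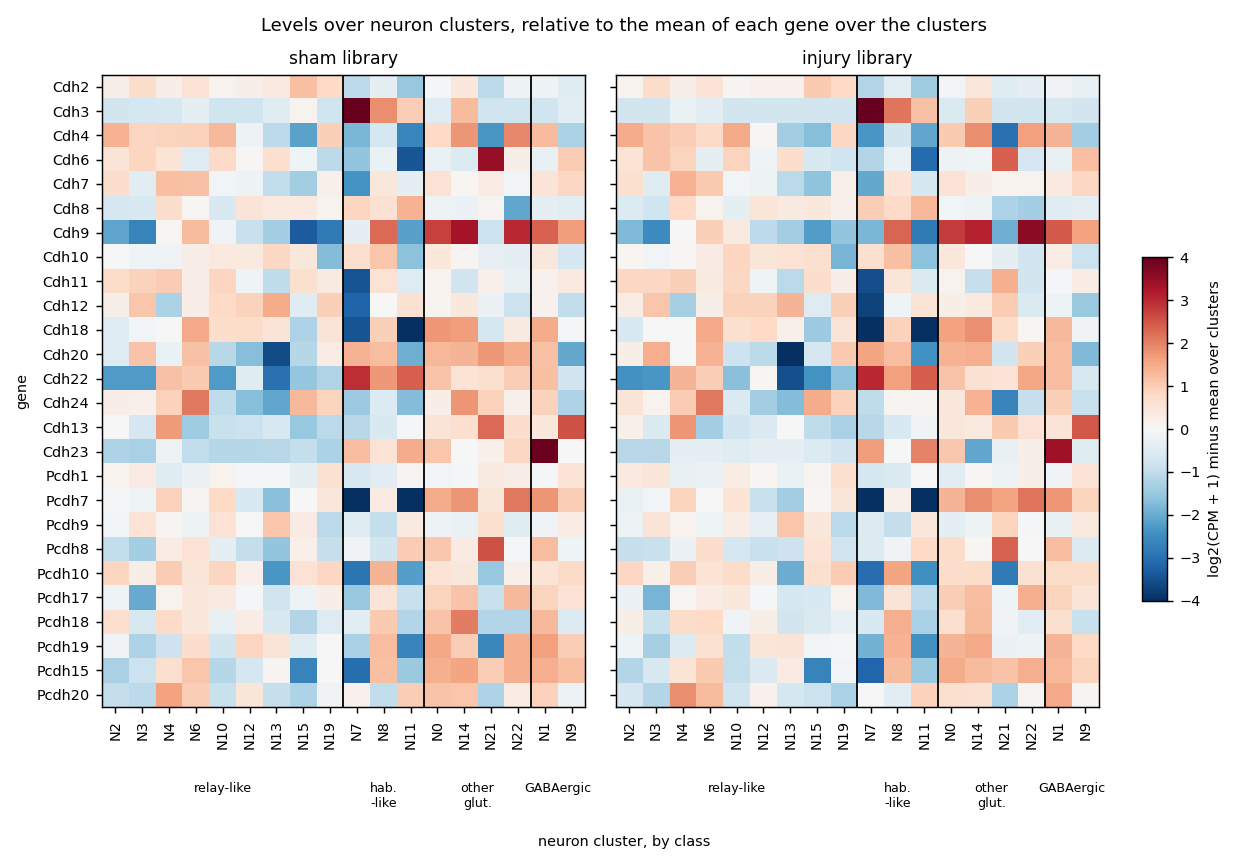
Levels of the genes over 18 neuron clusters (columns, by class) as log2(CPM + 1) minus the mean of the gene over clusters, in each library. Red marks clusters above and blue below the mean, and colors end at 4 and -4, which Cdh3 in N7 and a few low values pass. In both libraries N7 and N11 are blue beside N8 for Pcdh7 and Cdh18.

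To ask how levels compared between conditions, the injury level was divided by the sham level in each class. The median log2 ratio of the members was close to 0 in relay-like neurons (-0.03, beside -0.02 for all genes with at least 50 UMIs) and in OPCs (0.01, beside 0.00). It was -0.12 in habenula-like neurons (all genes -0.02), -0.07 in other glutamatergic neurons (0.00), -0.13 in oligodendrocytes (-0.03) and -0.10 in astrocytes (-0.02). In GABAergic neurons it was -0.15 (all genes 0.00), with 6 genes above and 19 below 0. With 1 library in each condition, none of these shifts could be set against the spread between animals. Cluster N8, where 11 of the genes 4-fold apart over habenula-like clusters were highest, was 41.6% of habenula-like nuclei in sham and 33.2% in injury. The part of this mix in the habenula-like median was not tested.

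Single genes were counted when their log2 ratio reached 0.5 either way with at least 100 UMIs, once 0.5 UMI had been added to each sum. In all, 11 of 140 pairs of gene and class did so, 7 higher and 4 lower in the injury library, and the interval of 10 excluded 0. Each pair rested on few UMIs, at most 467 over both libraries. By class the counts were 2 of 26 in relay-like neurons (6.22% of all genes), 2 of 22 in habenula-like neurons (4.22%), 3 of 25 in other glutamatergic neurons (5.58%) and 1 of 24 in GABAergic neurons (6.56%). In glia they were 0 of 15 in oligodendrocytes (10.6%), 1 of 16 in OPCs (7.88%) and 2 of 12 in astrocytes (15.6%).

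In relay-like neurons Cdh19 was at 0.597 CPM from 41 UMIs in sham and 1.40 CPM from 101 UMIs in injury, a log2 ratio of 1.23 (0.69 to 1.79). Cdh19 is the glial gene described above, and the summed level of 9 oligodendrocyte markers in the same neurons was 43.7 CPM in sham and 55.4 CPM in injury, none of them at 0. The most Cdh19 that free RNA could give relay-like neurons, from the library profile and the levels of other classes' markers, was 10.3 CPM in sham and 16.1 CPM in injury, above both levels. The part of glial or free RNA in this ratio was not tested. Cdh23 in relay-like neurons was at 0.859 CPM from 59 UMIs in sham and 1.62 CPM from 117 UMIs in injury, a log2 ratio of 0.92 (0.45 to 1.39), and the same upper estimate was 5.46 and 5.13 CPM. Without called doublets the ratios were 1.08 for both genes, and Cdh19 then had too few UMIs for the count.

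In habenula-like neurons Cdh3 was higher in the injury library, with a log2 ratio of 0.76 (0.48 to 1.05). The cholinergic cluster N7, where Cdh3 is highest, was 31.5% of habenula-like nuclei in sham and 44.1% in injury. Within N7 the log2 ratio was 0.42 (0.10 to 0.74), and the unweighted mean over the 3 clusters gave 0.39, short of the limit. Cdh23 was at 6.56 and 9.55 CPM in habenula-like neurons, a log2 ratio of 0.54 (0.11 to 0.99). By cluster the log2 ratio of Cdh23 was 0.72 in N7, 0.74 in N11 and -0.45 in N8, which had 24 and 17 UMIs. In GABAergic neurons, where Cdh23 is highest of the classes compared, the ratio was instead -0.36.

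In other glutamatergic neurons 3 low protocadherin genes were lower in the injury library. Pcdh20 was at 4.07 CPM from 69 UMIs and 2.52 CPM from 51 UMIs, a log2 ratio of -0.69 (-1.24 to -0.15). Pcdh18 had a log2 ratio of -0.56 (-1.08 to -0.05) and Pcdh8 one of -0.53 (-1.01 to -0.06). Without called doublets Pcdh20 alone was left. In GABAergic neurons Pcdh20 had the opposite sign, with 2.86 CPM from 40 UMIs and 4.63 CPM from 108 UMIs, a log2 ratio of 0.70 (0.16 to 1.26).

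In OPCs Cdh4 was at 73.4 CPM from 39 UMIs in sham and 112 CPM from 97 UMIs in injury, a log2 ratio of 0.61 (0.06 to 1.19). Called doublets were 9.72% of sham and 14.2% of injury OPC nuclei, and without them the log2 ratio was -0.07. In astrocytes Cdh22 was at 154 CPM from 70 UMIs and 96.7 CPM from 140 UMIs, a log2 ratio of -0.67 (-1.10 to -0.24). Cdh18 in astrocytes had a log2 ratio of 0.71, with an interval from -0.04 to 1.56 that included 0, at levels of 37.5 and 61.5 CPM beside upper estimates for free RNA of 72.0 and 58.2 CPM. Just outside the limit, Pcdh15 in astrocytes had a log2 ratio of 0.51 before 0.5 UMI was added.

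**Figure D5:**
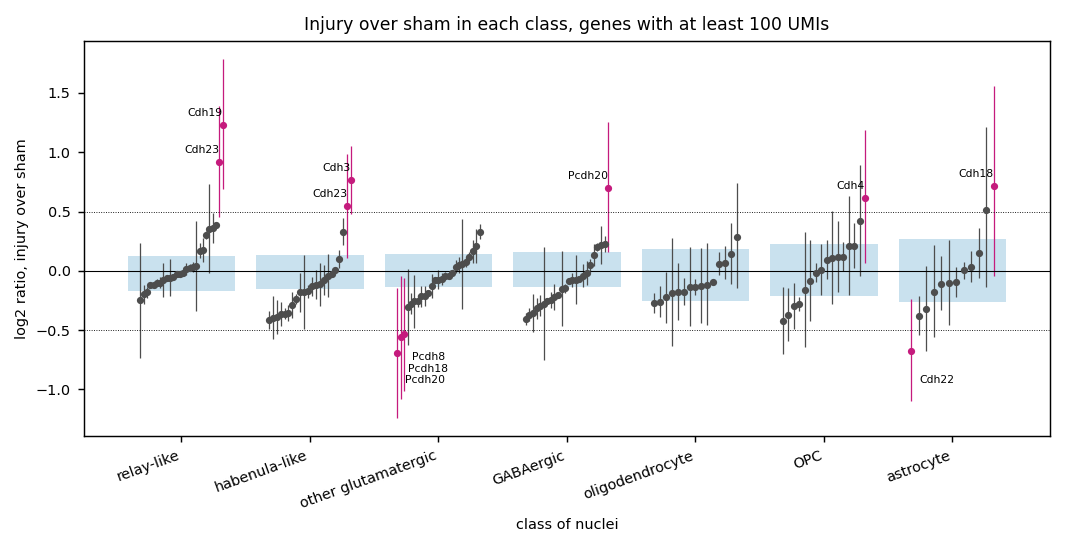
Log2 ratio of injury over sham for each gene with at least 100 UMIs, sorted within each of 7 classes of nuclei, with exact 95% intervals of counting error as bars. Blue bands show the middle 50% of all genes in the class and dotted lines 0.5 and -0.5, and the 11 named pink points lie outside these lines.

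Some members, most with smaller differences, had one sign over the classes where they had at least 100 UMIs. The share of all genes that did so was not counted. Cdh10 was lower in the injury library in 7 of 7 classes, with log2 ratios from -0.38 in astrocytes to -0.10 in relay-like neurons. Cdh13 was higher in 6 of 6 classes, from 0.07 in other glutamatergic neurons to 0.38 in relay-like neurons. Not every cluster had that sign, and in N21 of the other glutamatergic class the ratio was -1.03 (-1.20 to -0.86). N4, the relay-like cluster highest for Cdh13, was 13.6% of relay-like nuclei in sham and 16.0% in injury. The part of these shares in the Cdh13 ratio was not tested. Cdh7 was lower in 4 of 4 classes with enough UMIs, from -0.39 in habenula-like neurons to -0.18 in relay-like neurons. Cdh9 and Pcdh19 were also lower in 4 of 4 classes, and Cdh24 and Pcdh8 in 3 of 3. The other members counted in more than 1 class had both signs. Among habenula-like clusters Cdh7 was highest in N8, at 121 and 111 CPM, and lowest in N7, at 16.1 and 17.7 CPM. N8 was 41.6% of habenula-like nuclei in sham and 33.2% in injury, and N7 31.5% and 44.1%. Within N8 the Cdh7 level was lower in injury, and within N11 it was lower by a larger ratio. Within N7, from 48 and 89 UMIs, it was higher. The part of this mix in the Cdh7 ratio was not tested. Pcdh9, the most counted gene, stayed within -0.28 and 0.01. The classes share 2 libraries, so these signs do not count as repeats.

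Proteins that work with cadherins were counted in the same way. Of 24 partner genes (catenins, Fat, Dachsous and Celsr relatives, calsyntenins and a further protocadherin), 22 had enough UMIs and 1 was set apart, beside 10.6% of all genes. This was Jup, the junction protein plakoglobin, with 38.2 and 38.8 CPM in oligodendrocytes. No partner passed a log2 ratio of 0.5 in any class but astrocytes, where Ctnna3, Pkp4 and Plekha7 were higher in the injury library, 3 of 13, beside 15.6% of all genes. The median log2 ratio of the partners in astrocytes was 0.19, where the cadherins had -0.10.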

How the data were processed

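Per the labels and the study's methods, the authors isolated nuclei, counted UMIs with Cell Ranger 6.0.2 against mm10 (GRCm38) and deposited raw counts per gene and barcode, 1 matrix for each library, in which the lowest barcode total was 500 UMIs. Use of intronic reads and of strand was not given in the sources used here. Nuclei over the mitochondrial limit (9 sham, 30 injury) or with over 7500 genes (8 and 21) were removed. The libraries were integrated and clustered in Seurat 5.3.0 (R 4.3.3; 2000 variable genes less the 34 members and the partners, 30 components, Louvain resolution 0.5). Doublets were called with Scrublet in scanpy 1.11.5. Clusters were named from fixed markers, with naming limits set after the values were seen, and OPC and differentiating oligodendrocyte lists counted together. Genes, lists and comparisons were chosen with earlier results of these data known. Counts were summed by class, divided by the class total (CPM), and compared as ratios with exact Poisson or Clopper-Pearson intervals at 95%, in Python 3.11.15 with scipy 1.17.1. Background shares come from all genes, those used to cluster included. With 1 library in each condition no p-value was computed. Genes named with values were those set apart by a class, those past the log2 ratio of 0.5 with an interval that excluded 0, and the 5 most variable over clusters of the relay-like, habenula-like and GABAergic classes. Others with values were chosen after they were seen. Calculations were tested on simulated counts. Alternatives covered doublets, integration, resolution, free RNA, thinning to 2000 UMIs, averaging, edgeR's TMM factors and the limits.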

Additional observations from a re-analysis of the deposited data

Results flagged for a closer look

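A few genes had log2 ratios of injury over sham past 0.5 in a class and of the opposite sign in another. None of these differences was tested, since each condition is 1 library. Cdh22 was at -0.67 in astrocytes and at 0.36, 0.33, 0.21 and 0.22 in relay-like, habenula-like, other glutamatergic and GABAergic neurons. Cdh23 was at 0.92 in relay-like and 0.54 in habenula-like neurons and at -0.36 in GABAergic neurons. Pcdh20 was at -0.69 in other glutamatergic neurons and at 0.70 in GABAergic neurons.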

How the results depend on the processing

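No paired analysis was possible because each condition is 1 pooled library. Of 166 alternative values for 19 counts and medians, 133 stayed within the limits set and 33 moved. Changes of sign were not counted apart for these. With a 3-fold limit, 1 gene (Cdh3) was set apart in place of 3, with no share of all genes counted. Subtracting free RNA moved the relay-like median log2 ratio from -0.03 to 0.12, a change of sign, beside 0.24 for all genes. That subtraction used at most 79.0% of sham and 59.0% of injury relay-like UMIs as free RNA, an upper limit. The counts of genes past a log2 ratio of 0.5 moved most, and all rest on a few genes. Each is given with the share of all genes past the limit at the same setting, and is not read as a result about the members. In relay-like neurons they were 1 without called doublets (6.49%), 6 with free RNA subtracted (40.5%), 0 after thinning (5.61%) and 1 at a log2 ratio of 1 (0.403%). In habenula-like neurons they were 5 with free RNA subtracted (7.55%), 1 with the mean over clusters (3.73%) and 0 at a log2 ratio of 1 (0.173%). In other glutamatergic neurons they were 1 without doublets (5.55%), without integration (5.38%) or at resolution 1.0 (4.98%), and 0 after thinning (5.34%) or at a log2 ratio of 1 (0.521%). In GABAergic neurons they were 2 without integration (6.77%) or with 50 UMIs (9.36%), 3 with free RNA subtracted (10.1%) and 0 at a log2 ratio of 1 (0.67%). In oligodendrocytes they were 2 after thinning (11.3%) and 1 with 50 UMIs (14.95%). In OPCs they were 0 without doublets (8.42%), with free RNA subtracted (11.5%), with the mean CPM of single nuclei (12.3%) or at a log2 ratio of 1 (0.341%), and 2 without integration (7.83%) or after thinning (8.55%). In astrocytes they were 1 without doublets (15.7%) or with free RNA subtracted (17.2%), and 0 after thinning (18.3%) or at a log2 ratio of 1 (2.09%). The count of genes 4-fold apart over GABAergic clusters was 8 without doublets (4.66%) and 3 with 200 UMIs (3.28%), and over other glutamatergic clusters 10 at resolution 1.0 (14.3%). Both the 200 UMI limit and resolution 1.0 were added for cluster counts after seeing the data. Of 136 alternative values for single genes, 119 stayed, 16 moved and 1 changed sign, the log2 ratio of Cdh4 in OPCs, at -0.073 without called doublets. The causes were not tested. Thinning to 2000 UMIs left out most oligodendrocytes (714 of 990 in sham). Counts of low genes limit what can be seen in OPCs and astrocytes, where the median interval of a log2 ratio reached 0.25 and 0.29 either way.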

Other observations

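Clusters kept out of the classes held other combinations. Cluster N23, led by AC171111.1 and holding Neurod2, came from 208 injury nuclei and no sham nuclei, and had 622 CPM of Cdh9 from 829 UMIs, above each of the 4 neuron classes. Cluster N20, which holds Neurod6, came from 281 injury nuclei and had 149 CPM of Cdh9, 491 CPM of Cdh11 and 81.6 CPM of Cdh13. Cluster N17, GABAergic and holding Prdm16, came from 384 injury and 2 sham nuclei and had 1098 CPM of Cdh13, 1221 CPM of Cdh18 and 429 CPM of Cdh11. Of the N17 nuclei 34.7% were called doublets, beside 13.9% in N23 and 15.7% in N20. What doublets add to these levels was not tested. With 0 to 2 sham nuclei, no ratio between conditions was formed.

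Cluster N16 was named relay-like from the mean level of the relay markers, with 0 of them raised, but was led by Gm36903 and held Flt1. It came from 195 sham and 194 injury nuclei. It had 82.1 and 131 CPM of Cdh8, below every cluster of the 4 neuron classes, 948 and 784 CPM of Cdh12, and 67.0 and 64.9 CPM of Cdh9.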
